A study of Mus musculus with 4 samples.

Results

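The genes of the cytosolic ribosomal proteins were followed in mouse primary myotubes treated with EDA-A2, a ligand of the tumour necrosis factor family that binds the receptor EDA2R. Members were taken by name from the genes annotated as protein coding: symbols that begin with Rpl or Rps and a digit, together with Rplp0, Rplp1, Rplp2 and Rpsa, leaving out the S6 kinases (Rps6k). The rule found 93 of the 53647 genes in the tables. Of these, 46 were core proteins of the large ribosomal subunit, 31 were core proteins of the small subunit, and 16 were other genes whose symbols match, among them tissue-restricted paralogues, retrogenes and a binding protein. Of the 93 genes, 86 had enough counts to be tested, which included all 77 core genes and 9 of the 16 others.

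The study compared 2 libraries of control myotubes with 2 libraries of myotubes given EDA-A2. All cells were wild type, came from limb muscle of pups aged 2 to 3 days, and were differentiated in medium with 5% horse serum. EDA-A2 was given at 250 ng/ml for the last 24 h and cells were harvested at 72 h, that is, after 48 h of differentiation without the ligand. The sources used here do not say whether the libraries of a group came from separate pups or cultures, so the p-values measure the spread between libraries, which may be technical.

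Total counts on genes lay between 29444155 and 29746863 per library. Of the 12 myotube markers (among them Ckm, Acta1 and Myog), all passed the filter on low counts. At an edgeR adjusted p under 0.05, 6 fell and 1 rose, compared with 2.13% and 2.45% of all genes tested. The marker that rose was Mymx, which encodes a protein of myoblast fusion and was named after its value was seen. The summed normalised counts of the 12 markers were 920239 and 879998 in the controls and 662569 and 673558 after EDA-A2. None of the markers of myoblasts, dividing cells, macrophages, fibroblasts, endothelium, adipocytes or smooth muscle passed the test in either direction at an adjusted p under 0.05 (edgeR), and 3, 3, 2, 3, 1, 0 and 1 of them, in that order, had enough counts to be tested. Less RNA per cell and fewer cells of a type cannot be told apart in such bulk samples. The part of the fall in myotube markers in the values below was not tested.

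Each cytosolic ribosome holds 1 copy of nearly every ribosomal protein, and in vertebrates most of these proteins are encoded by a single expressed gene each beside many processed pseudogenes. Their mRNAs are among the most abundant in a cell and as a rule begin with a cytosine followed by a run of pyrimidines, the 5′ terminal oligopyrimidine (TOP) tract, through which the kinase complex mTORC1 and the protein Larp1 regulate their translation. In skeletal muscle, ribosome number is one of the determinants of protein synthesis and of fibre growth. Control of TOP mRNAs acts largely on translation, which RNA-seq does not measure.

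The symbol rule used no sequence, so the tract was searched for at the starts of the members' genes. RefSeq promoter sequences (GRCm38.p6, from 250 bases before to 50 after each annotated start) were found for 57 of the 77 core genes. At 13 of these 57 genes (22.8%, 95% Wilson interval 13.8 to 35.2%) a C followed by at least 4 pyrimidines stood exactly at an annotated start, compared with 3.01% of the 27025 genes in the table. Within 5 bases of the start the tract was found at 47.4% of the core genes and at 21.2% of all genes. The windows below, of 15 bases before the start and 15 from the start on, are those of named members whose tract lay within 5 bases of the start, with the tract in capitals as far as the window reaches:

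Rps6 (chr4:86857353-86857382, minus strand): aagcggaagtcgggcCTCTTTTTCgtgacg

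Rps18 (chr17:33955651-33955680, minus strand): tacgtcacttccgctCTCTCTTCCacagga

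Rps27 (chr3:90213634-90213663, minus strand): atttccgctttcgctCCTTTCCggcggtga

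Rpl35 (chr2:39005117-39005146, minus strand): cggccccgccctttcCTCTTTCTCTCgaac

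Rpl15 (chr14:18270972-18271001, minus strand): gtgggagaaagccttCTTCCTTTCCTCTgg

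Rplp2 (chr7:141447636-141447665, plus strand): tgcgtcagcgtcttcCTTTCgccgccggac

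Rps10 (chr17:27635230-27635259, minus strand): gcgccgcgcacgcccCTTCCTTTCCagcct

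Rps24 (chr14:24490663-24490692, plus strand): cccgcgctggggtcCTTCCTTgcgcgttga

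Rpl13a (chr7:45128731-45128760, minus strand): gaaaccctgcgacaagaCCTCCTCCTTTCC

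Rps9 (chr7:3704026-3704055, plus strand): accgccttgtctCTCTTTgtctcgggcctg

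Rpl31 (chr1:39367836-39367865, plus strand): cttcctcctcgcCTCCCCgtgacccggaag

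Rpl39 (chrX:37085208-37085237, minus strand): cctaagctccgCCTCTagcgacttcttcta

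In the first 7 windows the marked tract began at the annotated start, and in the others it began up to 4 bases before or 2 bases after it. The mark begins at the matching C nearest the start. In some windows, such as that of Rpl35, pyrimidines directly before the mark stayed in lower case. Of the other motifs searched, CCGGAAG on either strand, the core of the ETS family site, was held by 24 of the 57 core genes (42.1%) and by 9.93% of all genes. AAGATGGC on either strand, the YY1 motif, was held by 8.77% (95% Wilson interval 3.81 to 18.9%) against 3.19%. The palindrome CACGTG was held by 10.5% (4.91 to 21.1%) against 8.09%. TATAAA in the 50 bases before the start was held by 0 of the 57 core genes (95% Wilson upper bound 6.31%) and by 3.15% of all genes. These shares depend on the start annotation: with GENCODE canonical starts (GRCm39) the tract stood at the start of 7.79% of the 77 core genes and of 3.64% of all protein-coding genes. At those starts the ETS motif was held by 31.2% against 10.3% and the YY1 motif by 3.9% against 2.47%. CACGTG was held by 14.3% against 7.85%, and TATAAA by 1.3% against 3.21%.

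In control myotubes the ribosomal protein mRNAs were abundant, and levels spread widely between genes. The 77 core genes had between 3570 counts (Rpl24, in EDA-A2 replicate 1) and 58171 counts (Rpl4, in the same library) in any library. Per kilobase of coding length, the control level ranged from 279 CPM (counts scaled to a common library total) for Rpl24, a large subunit protein, to 8934 for Rpl41, whose product of 25 residues is the shortest of the family, a 32.1-fold range around a median of 1401. After Rpl41, the highest levels on this scale were those of Rps24 (3044) and the stalk protein gene Rplp1 (2575). After Rpl24, the lowest were those of Rps10 (379) and Rpl10a (544). Coding length leaves out the untranslated regions, which raises the level of the shortest genes on this scale, and reads that fit a pseudogene equally well were not counted. Exons of 32 core genes overlap another annotated gene on the same strand (Rpl24 and Rps10 among them), where HTSeq can set reads aside as ambiguous.

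**Figure D1:**
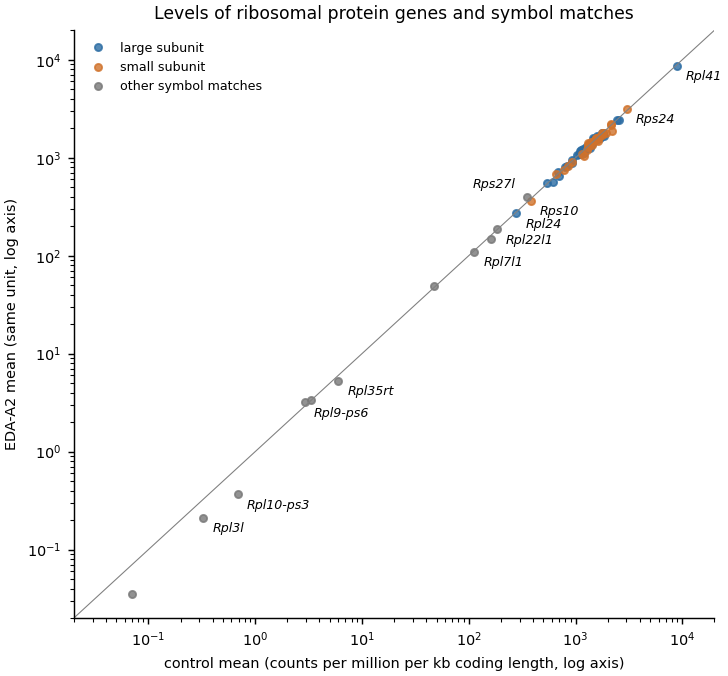
Mean level in CPM per kilobase of coding length, control on the x axis and EDA-A2 on the y axis (both log axes), for 46 large subunit genes, 31 small subunit genes and the other symbol matches with counts in both groups; the line marks equal levels. The core genes lie along the line between Rpl24 and Rpl41, and the other matches lie at 399 or lower.

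Summed over all core genes, ribosomal protein mRNAs made up 5.46% and 5.47% of all gene counts in control myotubes, and 5.32% and 5.58% in treated ones. The EDA-A2 libraries lay on both sides of the controls, with means of 5.46% ± 0.00866 (SD, n = 2) and 5.45% ± 0.185 (SD, n = 2). The 2-sided exact permutation test gave p = 1, where the smallest p that 2 against 2 libraries allow is 0.333. The large subunit genes took 3.21% in controls and 3.22% after EDA-A2, and the small subunit genes 2.25% and 2.23%.

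None of the 86 tested members was significantly up- or downregulated by EDA-A2 at an adjusted p under 0.05 (edgeR quasi-likelihood test), and DESeq2 called 0 as well. Over all 15173 genes tested, 2.13% were called lower and 2.45% higher (1.28% and 3.20% with scaling by total counts). At an unadjusted p under 0.05, 5 members were lower (Rps29, Rps28, Rps14, Rpl37 and Rpl31) and 0 were higher, compared with 8.03% and 7.61% of all genes. The libraries of the groups did not overlap for 31 members with EDA-A2 lower (36%) and for 2 with EDA-A2 higher (2.33%), where all genes gave 22.2% and 22.8%.

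The fold changes of the core genes were small and lay mostly on 1 side. On the log2 scale their median was -0.07 (large subunit -0.05, small subunit -0.07), a change of -4.59%, with quartiles at -0.11 and -0.02, and 69 of the 77 were below 0, whereas with scaling by total counts the median was -0.01 and 41 were below 0. For all genes tested the median was -0.0021 with TMM scaling and 50.5% were below 0, and with total counts the median of all genes was 0.05. The lowest core value was -0.28 (Rps29) and the highest 0.05 (Rpl35). The 95% intervals of 72 core genes included 0, and those of all 77 lay within 0.5 of 0 on the log2 scale, that is, within a fall of 29.3% and a rise of 41.4%. The lowest bound was -0.49, for Rps29, and the highest was 0.19, for Rpl35. The SD of the 77 fold changes was 0.06, and the SD of the log2 ratios between replicate libraries of 1 group over the same genes was 0.09 in controls and 0.09 in EDA-A2. Fold changes compare groups of 2 libraries and these ratios single libraries, which vary more, so the SDs are not on equal terms.

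**Figure D2:**
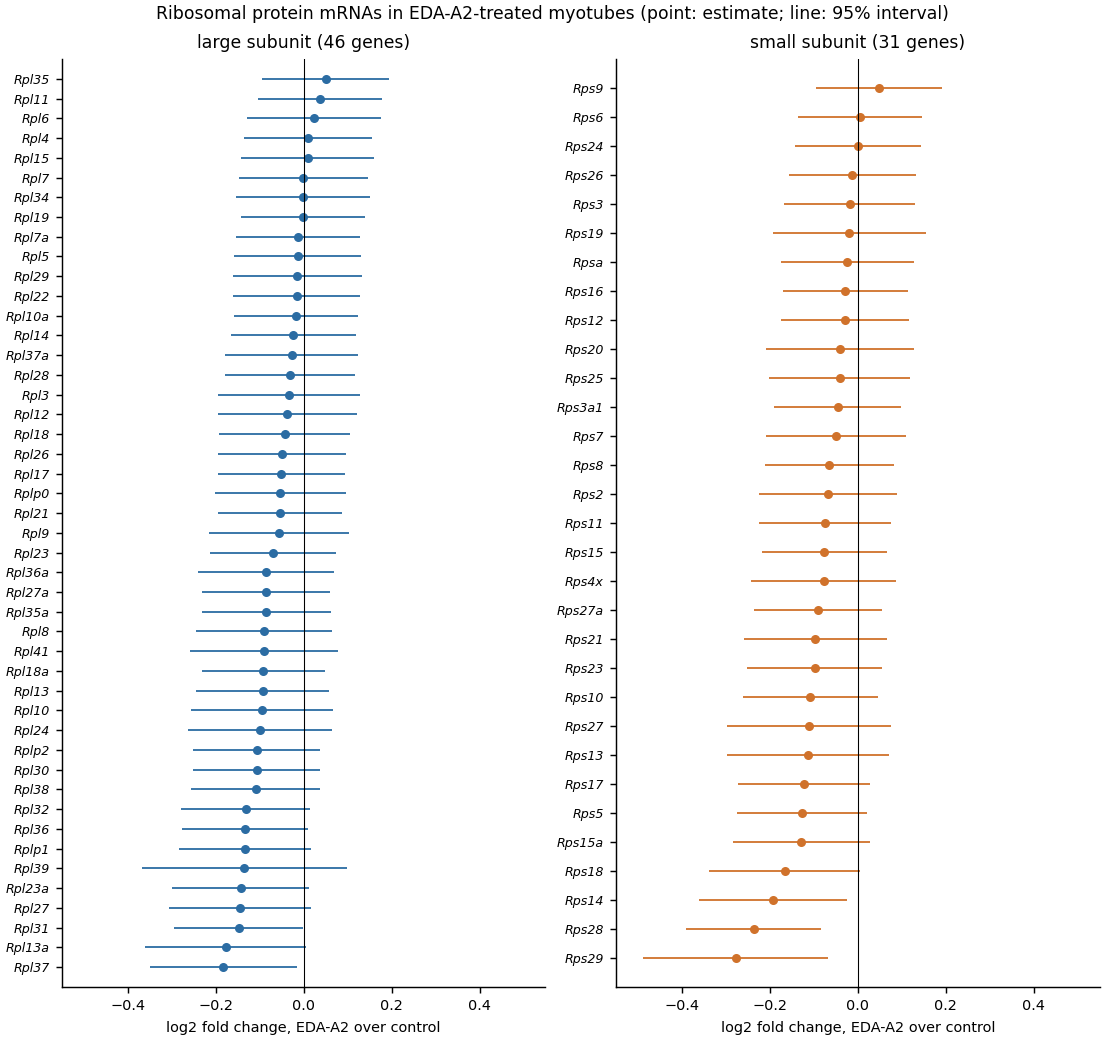
Log2 fold change of EDA-A2 over control (x axis) for each of the 46 large subunit genes (left) and 31 small subunit genes (right), ordered by value; points are edgeR estimates and lines 95% intervals, from 2 libraries a group. Most points lie between -0.2 and 0, and the intervals of 72 of the 77 genes cross 0.

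Among the core genes, the lowest values belonged to small proteins of the 40S subunit. Rps29, a zinc-binding protein of 56 residues (GRCm39 chr12:69204495-69205960, minus strand, 3 exons), had normalised counts of 10531 and 11725 in the controls and 8012 and 10338 after EDA-A2. Its groups did not overlap, but EDA-A2 replicate 2 lay just below control replicate 1. The log2 fold change was -0.28 ± 0.10 (SE; 95% interval -0.49 to -0.07; edgeR adjusted p = 0.15). Rps28, a protein of 69 residues (chr17:34034199-34043536, minus strand, 4 exons), had 7246 and 7691 in the controls and 6013 and 6657 after EDA-A2. Both EDA-A2 libraries were below both controls, and the log2 fold change was -0.24 ± 0.07 (SE; edgeR adjusted p = 0.0838), with Kank3 annotated on the opposite strand. Leaving out EDA-A2 replicate 1 moved the value of Rps29 to -0.11 and that of Rps28 to -0.17, and leaving out EDA-A2 replicate 2 moved that of Rps29 to -0.48, which then passed the test (edgeR adjusted p = 0.00699). With offsets for length and GC content, the values were -0.18 for Rps29 and -0.14 for Rps28.

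Rps14, another 40S protein, had 23174 and 21597 normalised counts in the controls and 18198 and 20969 after EDA-A2. Its log2 fold change was -0.19 (95% interval -0.36 to -0.03; edgeR adjusted p = 0.23), and without EDA-A2 replicate 1 it was -0.09. Rpl37, a zinc-binding protein of the large subunit (chr15:5145959-5153877, plus strand, 4 exons), had 16429 and 15930 in the controls and 13118 and 15388 after EDA-A2. Its log2 fold change was -0.18 (edgeR adjusted p = 0.264), and without EDA-A2 replicate 1 it was -0.07. Rpl31, which lies near the exit of the nascent chain tunnel, had 15642 and 15023 in the controls and 13363 and 14310 after EDA-A2, with a log2 fold change of -0.15 (edgeR adjusted p = 0.314), or -0.10 without EDA-A2 replicate 1. For these 3 genes the groups did not overlap, and EDA-A2 replicate 1 was the lowest library for each of them. The next 5 by p were Rpl13a (-0.18), Rps18 (-0.17), Rpl36 (-0.13), Rpl23a (-0.14) and Rpl32 (-0.13), with edgeR adjusted p-values between 0.342 and 0.391. Without EDA-A2 replicate 1 these values ranged from -0.05 (Rpl13a) to -0.10 (Rpl32), with Rpl23a at -0.06, and without control replicate 1 Rps18 was at -0.07. With offsets for length and GC content, Rps18 was at -0.11, Rpl36 at -0.06 and Rpl32 at -0.07. With the same offsets Rps14 was at -0.15, Rpl37 at -0.18, Rpl31 at -0.14, Rpl13a at -0.15 and Rpl23a at -0.12. Of these genes, Rpl13a, known from the interferon-dependent complex that represses translation, and Rps18 had overlapping groups.

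At the upper end, Rpl35 had 16695 and 15900 normalised counts in the controls and 17096 and 16644 after EDA-A2, a log2 fold change of 0.05 (95% interval -0.09 to 0.19). Rps9 had 22767 and 23507 in the controls and 23777 and 24055 after EDA-A2 (log2 fold change 0.05, edgeR adjusted p = 0.825). Rps9 and Rpl11 were the core genes whose libraries were all higher after EDA-A2, by amounts smaller than the SE of either estimate (0.07). Rpl6 (0.02), Rpl4 (0.01), Rpl15 (0.01), Rps6 (0.0041) and Rps24 (0.0010) completed the 8 core genes above 0.

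Members with known roles beyond their place in the ribosome did not pass the test either. Rpl5 and Rpl11, which with 5S rRNA bind Mdm2 and so stabilise p53 when ribosome assembly fails, had log2 fold changes of -0.01 (95% interval -0.16 to 0.13) and 0.04 (-0.10 to 0.18). Rps6, the substrate of the S6 kinases whose phosphorylation is a standard readout of mTORC1 activity, had 14934 and 14554 normalised counts in the controls and 14869 and 14702 after EDA-A2. Its libraries overlapped, and the interval of its log2 fold change ran from -0.14 to 0.14. Rpsa, also known as the laminin receptor, had a log2 fold change of -0.02 (-0.17 to 0.13). Of the stalk proteins, which recruit the elongation factors, Rplp0 had -0.05, Rplp1 -0.13 and Rplp2 -0.11. Rplp1 had 26120 and 27011 normalised counts in the controls and 23210 and 25236 after EDA-A2, without overlap (edgeR adjusted p = 0.406). Rplp2 had 14848 and 14194 in the controls and 13153 and 13814 after EDA-A2, again without overlap (edgeR adjusted p = 0.519). For Rplp0, often used as a reference gene in PCR, the groups overlapped at 52195 and 50810 against 48260 and 51026.

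The values below 0 came mainly from 1 library. In EDA-A2 replicate 1, 70 of the 77 core genes lay below the mean of the controls with a median log2 ratio of -0.12, and in EDA-A2 replicate 2, 47 lay below it with a median of -0.01. The EDA-A2 libraries differed from each other by a median of -0.09 over the core genes, replicate 1 being lower for 68 of them, which was larger in size than the median of -0.07 between the groups. A ratio of single libraries varies more than a ratio of groups, so these sizes are not on equal terms. The control libraries differed by 0.03. Scaled by total counts, the medians were -0.06 in EDA-A2 replicate 1 and 0.03 in EDA-A2 replicate 2, so that the libraries lay on opposite sides of the controls. On that scaling the median log2 fold change of all genes tested was 0.05, against -0.0021 with TMM scaling. Leaving out EDA-A2 replicate 1 brought the median over the core genes to -0.01, and leaving out EDA-A2 replicate 2 brought it to -0.13. EDA-A2 replicate 1 was also the library with the largest share of read pairs outside annotated genes, 7.40% against 6.68% in each control and 6.84% in EDA-A2 replicate 2. The part of this share in the result was not tested.

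**Figure D3:**
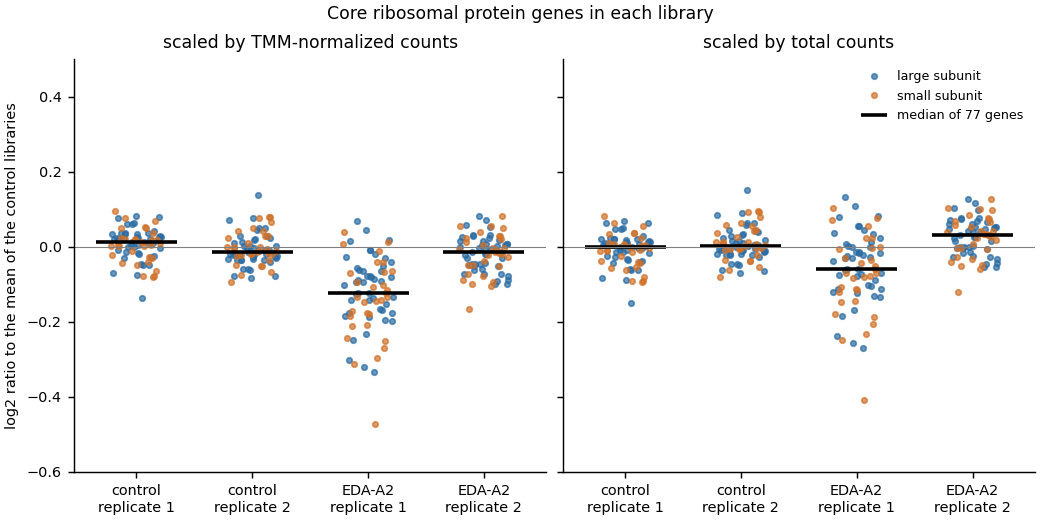
Log2 ratio of each of the 77 core genes to the mean of the control libraries (y axis) in each library (x axis), with TMM scaling (left) and scaling by total counts (right); points are genes coloured by subunit and bars are medians. The median of EDA-A2 replicate 1 is at -0.12 on the left and -0.06 on the right, and that of EDA-A2 replicate 2 is at -0.01 and 0.03.

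Among the core genes, shorter coding sequences went with lower values. The 9 genes with under 300 bases of coding sequence had a median log2 fold change of -0.11, and the 22 genes with 600 bases or more had -0.03. Over the 77 genes, which share the same 4 libraries, the log2 fold change and log2 coding length had a Pearson correlation of 0.46 and a Spearman correlation of 0.43. The short genes had a median log2 ratio of -0.25 to the controls in EDA-A2 replicate 1 and of 0.0003 in EDA-A2 replicate 2. The corresponding correlations over the 77 genes were 0.51 and 0.19 (Pearson) and 0.46 and 0.20 (Spearman). The ratio of control replicate 1 to the control mean, in which no treatment enters, had a Pearson correlation of 0.50 with log2 coding length over the same genes. Its Spearman correlation was 0.35. Over the 13068 tested genes with a coding length the Spearman correlation was 0.05, and the 318 of them under 300 bases had a median of -0.06. With offsets for length and GC content the core median was -0.04, 58 of the 77 genes were below 0, and the Pearson correlation with length was 0.15.

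**Figure D4:**
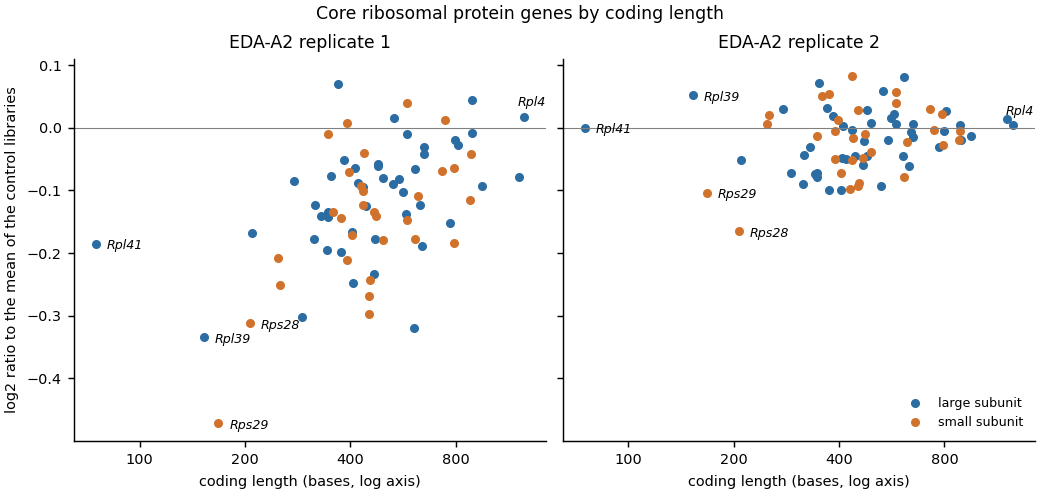
Log2 ratio to the mean of the control libraries (y axis) against coding length in bases (x axis, log scale) for the 77 core genes, in EDA-A2 replicate 1 (left) and EDA-A2 replicate 2 (right). The shortest genes lie lowest on the left, at a median of -0.25 under 300 bases, and near 0 on the right.

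The paralogues among the 16 other matches were less abundant than their core counterparts. Rpl3l, which replaces Rpl3 in mature skeletal and heart muscle, had 8 and 6 counts in the controls and 4 and 5 after EDA-A2 and was too low to be tested, while Rpl3 had 40023, 36461, 37604 and 40021 counts in the same libraries. Rpl39l and Rpl10l, known from the male germ line, and Rps4l had 0 counts in every library, which allows up to 3 counts per library. Rps23rg1, Rps18-ps6 and Rpl27rt had at most 2 counts in any library. These 7 genes complete the members that were not tested.

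Rps27l, a p53 target that can take the place of Rps27, had 2491 and 2852 normalised counts in the controls and 2746 and 3095 after EDA-A2. The groups overlapped, and its log2 fold change of 0.13 ± 0.08 (SE; 95% interval -0.05 to 0.30; edgeR adjusted p = 0.524) was the highest of any tested member. Its partner Rps27 had a log2 fold change of -0.11 (95% interval -0.30 to 0.08), so the intervals of the pair overlapped, and the difference between them was not tested. Rpl22l1 had -0.03 beside -0.02 for Rpl22, Rpl7l1 -0.11 beside -0.0006 for Rpl7, and Rpl36al -0.19 beside -0.09 for Rpl36a. Rpl39, the partner of Rpl39l, had -0.14, Rpl10 had -0.09 and Rps4x had -0.08. None of these pairs held a member that passed the test. Rps19bp1, which encodes a protein that binds Rps19 and is no ribosomal protein, had -0.0051.

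The retrogenes Rpl35rt and Rps27rt and the copies Rpl9-ps6 and Rpl10-ps3, which consist of 1 exon each, had between 4 and 66 counts per library. Rpl10-ps3 had 12, 14, 4 and 10 counts and a log2 fold change of -0.93 with a 95% interval from -2.08 to 0.21. Its groups did not overlap, and at these counts a difference of this size could not be told from 0. The value of Rpl35rt was -0.24, that of Rps27rt -0.05 and that of Rpl9-ps6 0.08. Reads from their parent genes can align to such copies, so these 4 values are uncertain.

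Of the ribosomal proteins outside the symbol rule, Rack1, a scaffold protein on the 40S subunit, had a log2 fold change of -0.09 (edgeR adjusted p = 0.678). Fau, which encodes a ubiquitin-like fusion with eS30, had -0.07 (edgeR adjusted p = 0.688), and neither passed the test.

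Other genes of the translation machinery were followed in short lists. Over all genes, 2.13% were called lower and 2.45% higher, so few or 0 calls in these lists say little about their genes. Of 7 tested elongation factor genes, 6 lay below 0 with a median of -0.03, and Eif5a, which releases stalled ribosomes, had 11907 and 10844 normalised counts in the controls and 13030 and 13954 after EDA-A2 (log2 fold change 0.25, edgeR adjusted p = 0.0729). Eef1a1, the most abundant of them, had -0.06, and Eef1b2 had -0.10. Of 37 initiation factor genes 0 passed in either direction, and the median was -0.02. Those with the smallest p were Eif1 (-0.24, edgeR adjusted p = 0.145), Pabpc1 (0.18, 0.168), which encodes the poly(A)-binding protein and is itself a TOP mRNA, and Eif2b4 (-0.26, 0.216).

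Among 16 genes of mTORC1 and its TOP mRNA regulators, 0 passed in either direction, compared with 2.13% and 2.45% of all genes. Their median was -0.02. At an unadjusted p under 0.05 (edgeR), 4 were lower and 1 was higher, compared with 8.03% and 7.61% of all genes. Rptor, the mTORC1 subunit that binds its substrates, had 2863 and 2722 normalised counts in the controls and 2439 and 2184 after EDA-A2. Its groups did not overlap, and its log2 fold change was -0.27 ± 0.07 (SE; edgeR adjusted p = 0.0526). Deptor, an inhibitor of mTOR, had -0.22 (edgeR adjusted p = 0.0967), and Rps6kb1, which encodes S6 kinase 1, had 0.22 (edgeR adjusted p = 0.101).

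Of 83 ribosome biogenesis factor genes, 1 fell and 0 rose, compared with 2.13% and 2.45% of all genes, and the median was 0.01. Rrp12, which takes part in the maturation and export of the pre-40S particle, had 1573 and 1305 normalised counts in the controls and 1113 and 1094 after EDA-A2. Both EDA-A2 libraries were below both controls, and Rrp12 fell by 0.38 ± 0.09 on the log2 scale (SE; edgeR adjusted p = 0.0259). This call was lost with scaling by total counts (edgeR adjusted p = 0.0635). It was also lost without the filter on low counts (edgeR adjusted p = 0.298), where only 0.0861% of all genes were called lower. With any 1 library left out it was lost too, but a group then keeps 1 library and calls over all genes are fewer or absent. These losses therefore say little about Rrp12 itself. Without control replicate 1 the change was -0.24. Krr1 (0.23, edgeR adjusted p = 0.125) and Efl1 (0.24, edgeR adjusted p = 0.142) did not pass. The 16 genes of the RNA polymerase I machinery, which makes the precursor of the ribosomal RNAs, had a median of 0.0023 and values from -0.15 (Polr1h) to 0.14 (Polr1f), with 0.13 for Myc. The 12 tested host genes of small nucleolar RNAs had a median of -0.07, 11 of them lay below 0, and the lowest was Snhg3 at -0.28 (edgeR adjusted p = 0.313). Scaled by total counts, the median of all genes tested moved from -0.0021 to 0.05. The medians of the elongation factors, initiation factors and mTORC1 genes turned positive with it (0.03, 0.04 and 0.04) and stayed below it. On the same scaling those of the biogenesis factors and RNA polymerase I genes were 0.07 and 0.06, and that of the small nucleolar RNA hosts was -0.0109. With TMM scaling, the median of the biogenesis factors ranged from -0.07 without control replicate 2 to 0.10 without control replicate 1.

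**Figure D5:**
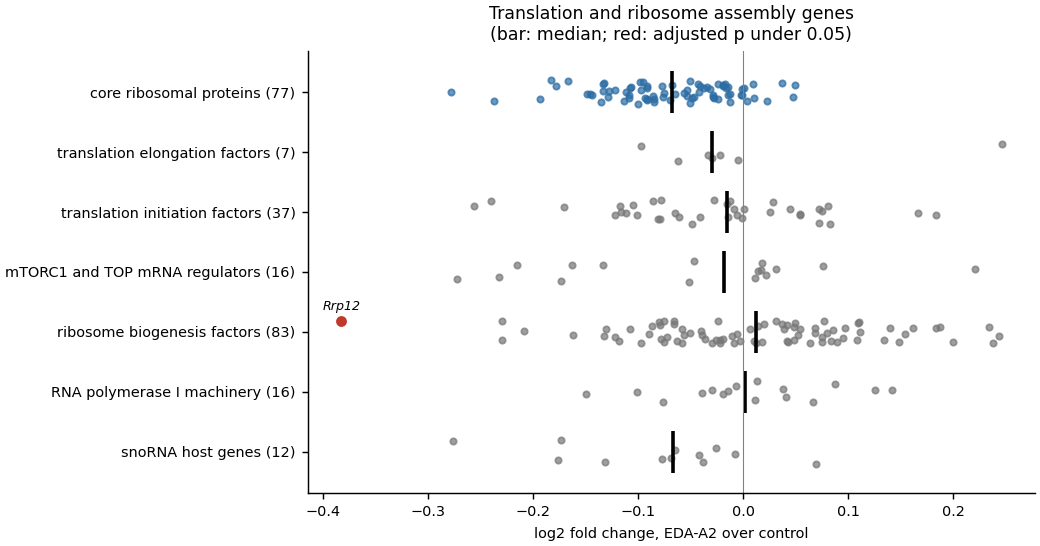
Log2 fold change of EDA-A2 over control (x axis) for each gene of the core ribosomal proteins and of 6 related lists (y axis, number of tested genes in brackets); bars are medians and the red point has an adjusted p under 0.05. The medians lie between -0.07 and 0.01, and Rrp12 at -0.38 is the red point.

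Among the core genes with a RefSeq promoter, the 13 with a tract at the start had a median log2 fold change of -0.10 and the 44 without had -0.05. With the tract counted within 5 bases of the start, the medians were -0.07 in the 27 genes with it and -0.05 in the 30 without. For the ETS motif the medians were -0.05 in the 24 genes with it and -0.05 in the 33 without. For the YY1 motif they were -0.11 in the 5 genes with it and -0.05 in the 52 without, and for CACGTG -0.02 in the 6 genes with it and -0.05 in the 51 without. These medians are descriptions from the same 4 libraries, and no difference between them was tested.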

How the data were processed

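RNA of 4 myotube samples (2 control, 2 EDA-A2) was sequenced by stranded, poly(A)-selected RNA-seq. Per the labels and the study's methods, the authors used FastQC 0.11.9, MultiQC 1.12, Trim Galore 0.6.5, STAR 2.7.3a (GRCm39) and HTSeq 0.11.1, and deposited raw counts per Ensembl gene, not normalized. The annotation release, the HTSeq strand setting and the study's test are not given in the sources used here. Without the strand setting, reads of a member and of an antisense gene (34 core genes have one) may not have been told apart. Pairs outside genes (6.68 to 7.40%), ambiguous (0.946 to 0.986%) and not uniquely aligned (4.56 to 4.76%) stayed out of library sizes.

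IDs were matched to GENCODE M39 (52610 of 53647). The test was that of edgeR 4.0.16 in R 4.3.3 (filterByExpr, minimum count 10, minimum total 15; TMM factors 0.9718 to 1.026; glmQLFit and glmQLFTest, treatment being the sole term), with Benjamini-Hochberg adjustment over 15173 genes at 0.05. The common dispersion was 0.00384. Normalised counts are counts scaled by TMM to the mean effective library size. Ratios of single libraries added 0.5 to normalised counts. Intervals are at 95%. Alternatives were DESeq2 1.42.0, other scalings and filters, a replicate block, offsets on coding length and GC content (loess span 0.3), pseudogene counts added to members, and leaving out each library. Scripts were tested on simulated data.

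Named genes were the 10 with the smallest p in each direction, the 3 with the highest and lowest level, paralogues and other matches, 7 members chosen for known roles, and the 3 with the smallest p in each related list. The members and lists were chosen with earlier results of these data known. 1 gene of the related lists is not reported here.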

Additional observations from a re-analysis of the deposited data

Results flagged for a closer look

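Read pairs outside annotated genes, which are not part of the gene counts tested above, made up a larger share of both EDA-A2 libraries than of the controls. The shares were 7.40% in EDA-A2 replicate 1, 6.84% in EDA-A2 replicate 2 and 6.68% in each control library.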

How the results depend on the processing

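No member was called higher under any of the 11 alternative settings or with any of the 4 libraries left out. No member was called lower except that 2 were with the replicate block (Rps28, edgeR adjusted p = 0.0289, and Rps29, 0.0141) and 1 (Rps29) without EDA-A2 replicate 2, a range of 0 to 1 over the libraries left out; without either control library no gene of the whole table was called, so those counts say nothing about stability. The number shared by a control and an EDA-A2 library is not shown to pair them (correlation of deviations 0.0566 over all genes and 0.295 over the members, from 2 pairs), and the block raised calls over all genes to 3.49% lower and 3.54% higher, while testing without a filter on low counts left 0.0861% and 0.251%. The core median moved from -0.068 to -0.0126 with total counts, while the median of all genes moved from -0.0021 to 0.0525. Over the libraries left out, the core median ranged from -0.127 to -0.0130. Adding pseudogene counts changed the share of counts in controls from 5.49% to 5.51%. The share of core genes with a tract was 22.8% at the start, 47.4% within 5 bases and 7.79% at GENCODE starts (an alternative chosen after seeing the data, as were the calls without each library).

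Of 300 values (20 named members, 15 alternatives), 16 changed sign, all of members near 0. With length and GC offsets, Rpl4 was -0.0113 and Rpl15 -0.0161, and with the block added -0.0111 and -0.0173. Without the filter Rps6 was -0.0006 and Rps24 -0.0036, and with DESeq2 size factors or its Wald test Rps24 was -0.0009. With libraries left out, Rpl9-ps6 ranged from -0.0719 to 0.2256, Rpl6 from -0.0376 to 0.0894, Rpl4 from -0.0055 to 0.0289, Rpl15 from -0.0666 to 0.0814, Rps6 from -0.0135 to 0.0246, and Rps24 from -0.0045 to 0.0059. With the block, Eif5a, Rptor, Rps6kb1 and Krr1 of the related lists also passed the test. Without the block, Eif5a (edgeR adjusted p = 0.0209) and Rps6kb1 (0.046) passed with total counts. Eif5a (edgeR adjusted p = 0.0236) and Deptor (0.0495) passed with length and GC offsets. With these offsets and the block together, Eif5a, Eif6, Rptor, Deptor and Efl1 passed. The causes were not tested. With 2 libraries a group, the median interval half-width of a core gene was 0.15 on the log2 scale, so smaller changes were not detectable gene by gene. That width belongs to a test without adjustment, and Rps29 at -0.28 did not pass after adjustment. Changes larger than 0.15 could therefore be missed as well.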
